A study of Drosophila melanogaster with 102 samples.

Results

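The odorant binding proteins (Obps) are a family of small secreted carrier proteins, and all 51 genes whose FlyBase symbol starts with Obp followed by a digit were taken from the 14312 genes counted in whole flies. All 51 had a row in the table of the mothers and in that of their progeny. In the antenna, Obps fill the fluid around olfactory neurons, where they bind odorants and carry or buffer them near the receptors. Many family members are made elsewhere: some are transferred in seminal fluid, some are made in taste organs, and others in the fat body or in glia. The gene lush, an odorant binding protein under another symbol, is outside the family as counted here.

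Drosophila melanogaster females of the white mutant strain W1118 ate a high sugar diet (HSD), a high fat diet (HFD) or a control diet (CD) for 7 days and were mated with males kept on CD. The progeny all ate CD at 25 °C, and whole sons and daughters were sequenced at day 0, day 10 and day 50. The HSD, HFD and CD mothers had 5 libraries each. There were 5 libraries for each maternal diet, day and sex, except 6 HSD day 50 sons, 3 HFD day 50 sons, 4 HSD day 50 daughters and 4 CD day 0 daughters. A progeny group is named below by the diet of its mothers. The labels do not say whether libraries came from separate vials or how many flies each pooled, so p-values measure only the spread between these libraries.

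The 102 libraries held between 6332907 and 19469296 counts. Levels are given as CPM, the counts of a gene scaled to library size. Library m8, labelled an HFD day 0 son, held 1327 CPM of the oocyte transcript osk and 0 CPM of the testis transcript betaTub85D, while f12, labelled an HSD day 0 daughter, held 228 CPM of betaTub85D and 452 CPM of the accessory gland transcript Acp36DE. By correlation over 13239 genes that are not Obps, 14 of 87 progeny libraries lay nearest to another day of their sex. Among these were m8 (nearest to day 50), m12 (an HSD day 0 son, nearest to day 10), f21 and f22 (HFD day 10 daughters, nearest to day 0), f8, f13 and f15 (HFD and HSD day 0 daughters, nearest to day 10), m27 (an HSD day 10 son, nearest to day 50), m40 and m45 (HSD day 50 sons, nearest to day 10 and to day 0), f27 (an HSD day 10 daughter, nearest to day 50) and all 3 HFD day 50 sons (nearest to day 10). A further set, of f19 (a CD day 10 daughter), f21, f22 and m45, was doubted because their age markers lay nearest to day 0 in earlier results of these data. Several results below are also given without doubted libraries. The 3 HFD day 50 sons make up their whole group and could not be left out.

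Levels between genes are compared per length. Over the progeny, Obp99c led with 564 CPM per kilobase of its longest transcript, followed by Obp56g with 532, Obp56d with 302, Obp19d with 233, Obp44a with 186, Obp51a with 181, Obp99b with 134 and Obp99a with 119 CPM per kilobase. These are means over both sexes, and the order differed between them: in sons Obp56g led with 1041 CPM per kilobase and Obp99c had 746, while in daughters Obp99c led with 382 and Obp56g had 23.5. Obp51a had 360 CPM per kilobase in sons and 2.28 in daughters, and Obp99b had 263 and 6.37. At the other end, 15 Obps stayed under 1 CPM on average in every group, among them the taste organ genes Obp57d and Obp57e. The summed family averaged 2370 ± 601 CPM in day 0 sons, 3464 ± 382 in day 10 sons and 3332 ± 937 in day 50 sons (SD, n = 15, 15 and 14). In daughters it averaged 1424 ± 523 CPM at day 0, 875 ± 624 at day 10 and 983 ± 211 at day 50 (SD, n = 14, 15 and 14). The mothers, counted in a separate table, averaged 760 ± 139 CPM (SD, n = 15), a level set beside those of the daughters without a test. Obp50b and Obp50c share their annotated position and had identical counts in every library, so they cannot be told apart and are counted as 2 members throughout.

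**Figure D1:**
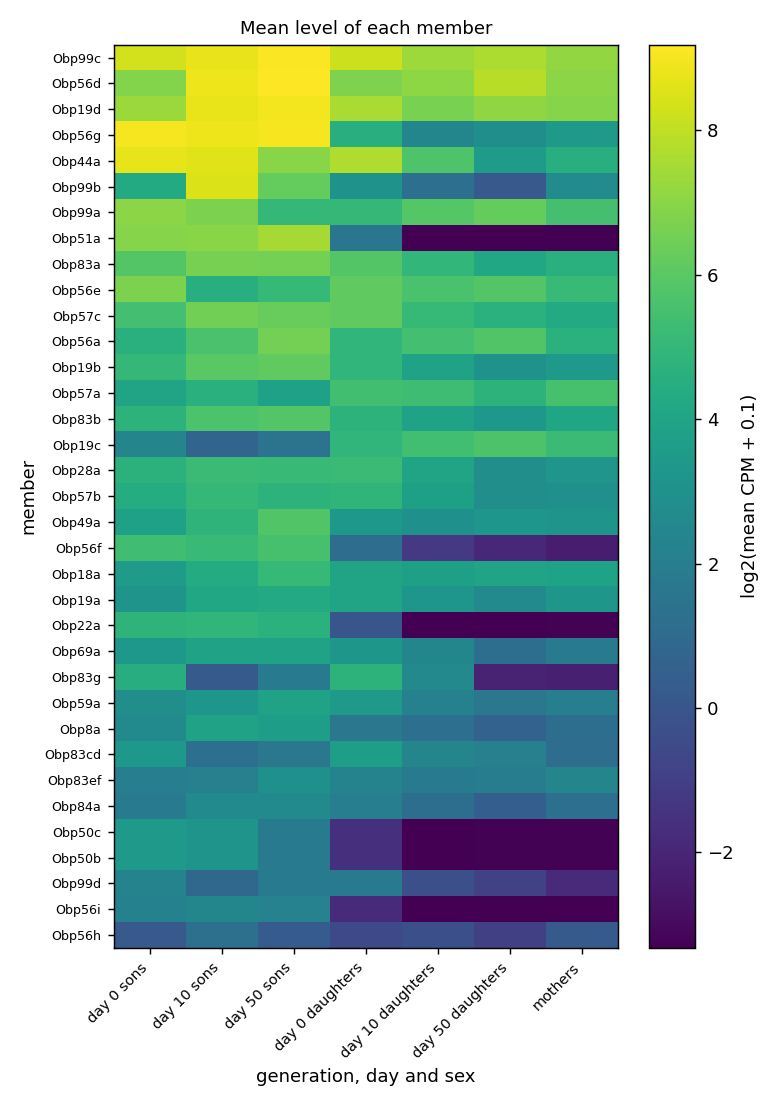
Mean CPM, as log2(mean CPM + 0.1), of the 35 Obps that averaged at least 1 CPM in some combination of generation, day and sex (columns; sons, daughters, then mothers; members in rows, highest on top). Obp51a, Obp22a, Obp50b, Obp50c and Obp56i are at the dark, low end of the scale in day 10 and day 50 daughters and in mothers, and lighter in sons of every day.

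Sons and daughters differed in nearly every Obp measured at days 10 and 50. At day 10, 30 of 36 tested Obps were higher and 5 lower in sons than in daughters, where 87.4% of all 12839 tested genes differed (edgeR quasi-likelihood test, Benjamini-Hochberg adjusted p under 0.05). At day 50, 32 of 37 were higher and 4 lower in sons, against 91.6% of all genes. At day 0, 14 of 37 were higher and 3 lower, against 54.4% of all genes. Without m8 and f12 these day 0 counts were 19 and 3, and without the day 0 libraries nearest to another day they were 13 and 9. The share of Obps that differed was therefore near that of all genes at days 10 and 50. The median log2 fold change of the tested Obps was 1.89 at day 10 and 2.54 at day 50, beside 0.20 and 0.63 over all genes. Some Obps passed the expression filter only through sons, so their direction was fixed in advance. At day 10 these included Obp51a, Obp22a, Obp56i, Obp50b and Obp50c, with 0 counts in daughters. They are part of the counts of higher Obps and of the medians. The libraries also differed in tissue content: 7 ovary genes summed to 11.5 ± 1.77 CPM in day 10 sons and 3057 ± 1455 CPM in day 10 daughters (SD, n = 15 each), and the part of this in the Obp differences was not tested. In whole flies, fewer cells of a type and less RNA per cell cannot be told apart.

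Several Obps known from seminal fluid had no count in any daughter of day 10 or day 50. Of the 7 on that list, all were higher in day 0 sons, and 6 were higher and Obp56e lower in sons at days 10 and 50. Those with no count in daughters passed the expression filter through sons alone, so their direction was fixed in advance. Obp51a had 94.5 CPM in the lowest day 10 son, a median of 128 and 158 in the highest, against 0 counts in all 15 day 10 daughters. Its pooled level in sons was at least 7691-fold higher, taking 3 counts over the daughters as the limit, and at least 10150-fold higher at day 50. For Obp22a the same limit gave at least 1829-fold at day 10 and at least 1427-fold at day 50, and for Obp56i at least 324-fold and at least 258-fold. Obp50b and Obp50c, which are not on the seminal fluid list, were at least 543-fold higher in day 10 sons. At day 0 the labels mattered: Obp51a was at 0 in m8, labelled a son, and at 40.9 CPM in f12, labelled a daughter, while the other 14 sons had 54.8 to 260 CPM and the other 13 daughters had 0.

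Obp19c and Obp57a ran the other way at every day. Obp19c had 0.732 CPM in the lowest day 10 son, a median of 1.51 and 2.66 in the highest, against 1.05, 41.9 and 98.7 CPM in day 10 daughters. The groups overlapped at the HFD daughters f22 and f25, which were near 1 CPM, and its log2 fold change was -4.38 ± 0.44 (SE, edgeR adjusted p = 3.5e-10). It was -2.80 ± 0.81 at day 0 (edgeR adjusted p = 0.0051) and -4.40 ± 0.58 at day 50 (edgeR adjusted p = 1.05e-07). Obp57a was lower in sons by smaller amounts, with log2 fold changes of -1.17 ± 0.17 at day 0, -0.50 ± 0.12 at day 10 and -0.78 ± 0.14 at day 50 (SE, edgeR adjusted p = 2.6e-06, 3.1e-04 and 1.4e-05). Obp83g, Obp56e and Obp83cd were also lower in day 10 sons (edgeR adjusted p = 0.0026, 0.003 and 0.019), and these 3 calls were lost without f19, f21 and f22, at adjusted p = 0.19, 0.18 and 0.47. All 7 antennal Obps were higher in sons at days 10 and 50, at median log2 fold changes of 1.82 and 2.44, as were all 8 eye genes, at 1.62 and 1.82.

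From day 0 to day 10 more Obps rose than fell in sons, and more fell than rose in daughters. In sons, 20 of 41 tested Obps were higher and 4 lower at day 10, where 30.6% of 13058 genes changed. Without m8, m12, m27, m40 and m45, in a fit that holds all 3 days, the sons' counts were 19 and 5. In daughters, 1 of 30 was higher and 22 were lower, where 76.5% of 10971 genes changed. The daughters' share of Obps that changed was near that of all genes. How all genes split into rises and falls is not given here. The 1 higher Obp in daughters was Obp99a, at 0.97 ± 0.44 on the log2 scale (SE, edgeR adjusted p = 0.0447). It was at -0.050 (edgeR adjusted p = 0.90) without the daughters nearest to another day and at 0.23 (edgeR adjusted p = 0.55) without f22 alone. These comparisons share libraries with those of day 50 and of the sexes, so their counts are set side by side without a test of overlap. The difference between the sexes was itself past the threshold for 24 of 38 Obps, 23 of them more positive in sons, against 54.4% of all 13076 genes. Among 30 Obps tested in both sexes, 13 were higher in sons and lower in daughters at day 10, and 3 were lower in both. Over the same days the ovary genes summed to 3057 ± 1455 CPM in day 10 daughters and 1529 ± 1520 CPM in day 0 daughters (SD, n = 15 and 14), and their part in the falls was not tested.

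**Figure D2:**
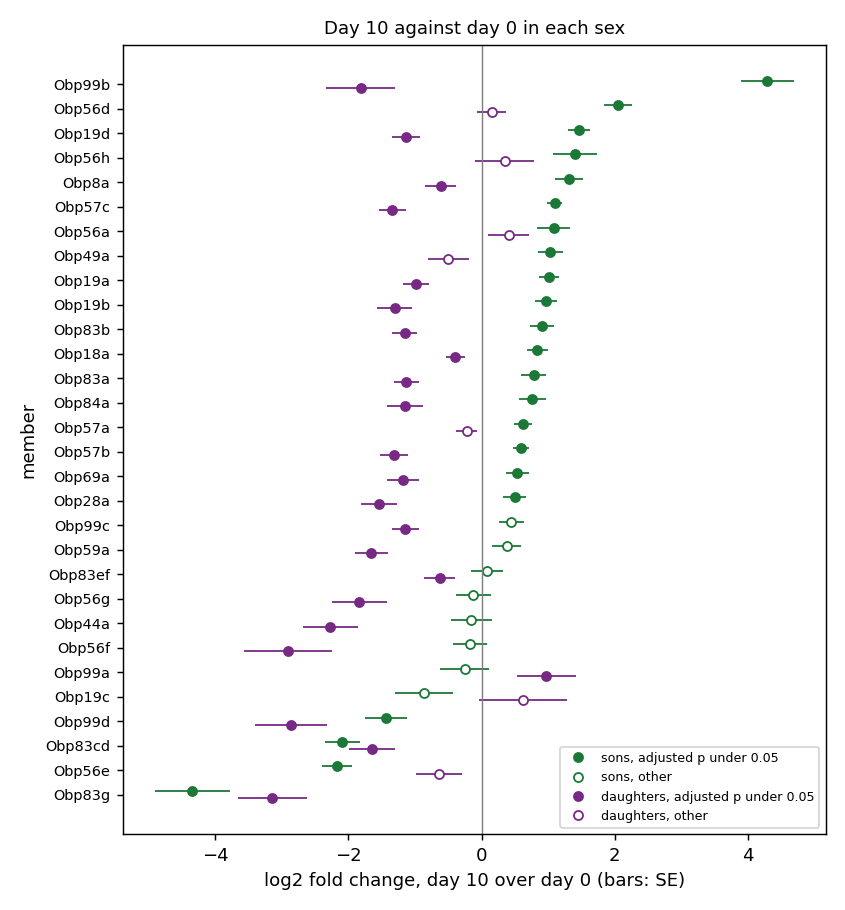
Log2 fold change at day 10 over day 0 (x axis, bars SE) for the 30 Obps tested in both sexes (y axis), averaged over the maternal diets, in sons (green) and daughters (purple); filled points have an adjusted p under 0.05. Obp99b lies farthest right in sons, and Obp83g lies far to the left in both sexes.

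The sons' rises ran through several roles. Obp56d had 331 CPM in the lowest day 10 son, a median of 446 and 644 in the highest, against 43.4, 95.1 and 283 CPM in day 0 sons, with no overlap and a log2 fold change of 2.05 ± 0.21 (SE, edgeR adjusted p = 1.16e-09). Obp19d averaged 433 ± 96.1 CPM in day 10 sons and 160 ± 48.3 in day 0 sons, beside 103 ± 86.3 CPM in day 10 daughters and 190 ± 80.9 in day 0 daughters (SD, n = 15, 15, 15 and 14). Its change was more positive in sons by 2.47 ± 0.26 on the log2 scale (SE, edgeR adjusted p = 2.37e-10). The seminal fluid gene Obp8a and the taste organ gene Obp49a rose in sons by 1.31 ± 0.21 and 1.03 ± 0.18 (SE, log2, edgeR adjusted p = 3.1e-06 and 2.49e-05). The 4 Obps that fell in sons were Obp83g, Obp56e, Obp83cd and Obp99d, and of these Obp83g, Obp83cd and Obp99d fell in daughters as well. Obp56e, from the seminal fluid list, averaged 23.1 ± 4.14 CPM in day 10 sons and 105 ± 34.3 in day 0 sons (SD, n = 15 each), and it was the single Obp whose change was more negative in sons, by -1.68 ± 0.42 (SE, log2, edgeR adjusted p = 8.79e-04).

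The antennal Obps moved with the majority in each sex. These are Obp19a, Obp28a, Obp59a, Obp69a, Obp83a, Obp83b and Obp84a, of which Obp83a and Obp83b serve trichoid sensilla and Obp59a has a role in sensing humidity. In sons 6 of 7 were higher at day 10 and in daughters all 7 were lower, and the difference between the sexes passed the threshold for all 7. Obp83a averaged 97.2 ± 20.9 CPM in day 10 sons and 57.2 ± 20.1 in day 0 sons, beside 30.6 ± 21.9 CPM in day 10 daughters and 56.9 ± 27.6 in day 0 daughters (SD, n = 15, 15, 15 and 14). From a list of other olfactory genes, which holds the coreceptor Orco and the membrane protein Snmp1, 10 of 12 were higher in day 10 sons and 11 of 11 tested were lower in day 10 daughters. The count of falls in daughters varied with the maternal line, though the difference between lines was not tested: 22 Obps were lower in the HSD line, 16 in the CD line and 0 in the HFD line, which holds f8, f21 and f22. The share of all genes called within each line is not given here, so these counts show no difference particular to the Obps.

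Obp83g was highest in the youngest flies. It had 0.580 CPM in the lowest day 10 son, a median of 1.002 and 2.16 in the highest, against 0.430, 23.4 and 36 CPM in day 0 sons. The day 0 sons m8 and m12 lay among or below the day 10 sons, and the other 13 lay above them. In daughters it ran from 0.675 to 52.8 CPM at day 0, from 0.441 to 38.8 at day 10 and from 0 to 0.661 at day 50. Its fall from day 0 to day 10 was -4.34 ± 0.57 in sons and -3.14 ± 0.52 in daughters on the log2 scale (SE, edgeR adjusted p = 1.1e-07 and 7.2e-06). A further 3 libraries labelled with a later day held levels like those of day 0, namely m45 with 38.4 CPM, f22 with 38.8 CPM and f21 with 19.4 CPM.

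From day 10 to day 50, 6 of 41 Obps rose and 8 fell in sons, where 54.5% of genes changed. In daughters 1 of 30 rose and 16 fell, where 66% changed. In both sexes the share of Obps that changed was below that of all genes. The daughters' riser was Obp56d, at 0.59 ± 0.21 on the log2 scale (SE, edgeR adjusted p = 0.0168). The difference between the sexes passed the threshold for 10 of 39 Obps, against 50.7% of 13178 genes. In daughters all 7 antennal Obps fell further, and Obp83a averaged 17.4 ± 6.89 CPM at day 50 (SD, n = 14). In sons 1 of these 7 rose and none fell past the threshold. The daughters' counts also varied with the line, with 19 Obps called in the HFD line, 12 in the CD line and 1 in the HSD line, and without f19, f21 and f22 there were 4 higher and 12 lower over all lines. In sons, 11 were called in the CD line, 2 in the HFD line and 1 in the HSD line, and the count over all lines was 22 without m8, m12, m27, m40 and m45. These counts by line also stand without the share of all genes, and the difference between lines was not tested.

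Obp44a, which is known from glia, and Obp99a, from the fat body group, fell together in ageing sons. Obp44a had 41 CPM in the lowest day 50 son, a median of 93.6 and 536 in the highest, against 62.2, 392 and 473 CPM in day 10 sons. The overlap came from the day 50 son m45 at 536 CPM and the day 10 son m27 at 62.2 CPM. Its log2 fold change was -1.72 ± 0.34 and that of Obp99a -2.11 ± 0.42 (SE, edgeR adjusted p = 1.15e-04 and 1.22e-04). Obp99a had 2.77 to 144 CPM in HSD day 50 sons, 53.8 to 61.2 in HFD sons and 1.29 to 12.1 in CD sons. HSD sons overlapped both other groups. HFD and CD sons did not overlap, but no Obp passed the threshold in that comparison, where 0% of genes did. In daughters Obp44a fell at both steps, by 2.27 ± 0.41 and by 2.30 ± 0.43 on the log2 scale (SE, edgeR adjusted p = 2.3e-05 and 2.8e-05), while Obp99a differed between the sexes by -2.47 ± 0.63 in its change from day 10 to day 50 (SE, edgeR adjusted p = 0.001).

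**Figure D3:**
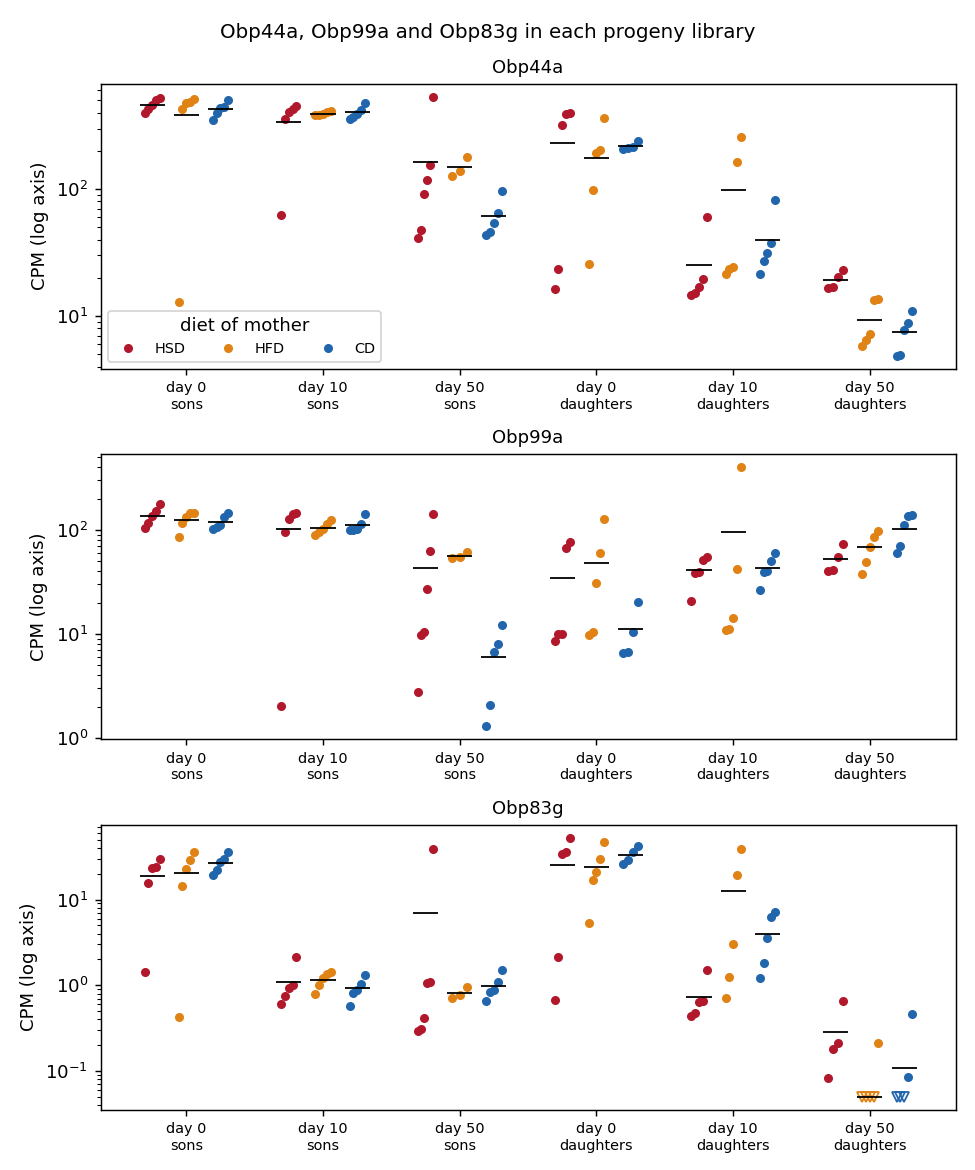
CPM on a log axis of Obp44a, Obp99a and Obp83g in each progeny library (points, by maternal diet; black bars are group means; open triangles at 0.05 CPM are libraries below that level, including those at 0). Obp83g is at about 1 CPM in most day 10 and day 50 sons except m45 at 38.4 CPM, and Obp44a is lower in day 50 than in day 10 daughters.

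Obp99b, at position 29716254 to 29716896 on the minus strand of chromosome arm 3R in the Ensembl annotation of assembly BDGP6.54, is a fat body gene known for higher expression in males. In sons it peaked at day 10. At day 0 it had 10.2 to 50.9 CPM in HSD sons, 34.4, 48.2, 0.172, 38.6 and 35.7 in HFD sons, and 5.66, 5.68, 4.93, 5.54 and 9.10 in CD sons, with the lowest HFD value in m8. The other 4 HFD sons lay above all 5 CD sons. At day 10 it had 110, 176, 198, 124 and 114 CPM in HSD sons, 637, 516, 361, 215 and 510 in HFD sons, and 466.2, 740, 669, 408 and 274 in CD sons. At day 50 it had 10.6 to 211 CPM in HSD sons, 27.5 to 81.7 in HFD sons and 61.2 to 101 in CD sons. The rise from day 0 to day 10 was 4.29 ± 0.39 on the log2 scale (SE, edgeR adjusted p = 1.2e-10), and the change at day 50 against day 10 was -2.13 ± 0.39 (SE, edgeR adjusted p = 4.4e-05). The summed level of 4 head fat body genes moved over the same days, at 109 ± 29.5 CPM in day 0 sons, 691 ± 406 in day 10 sons and 278 ± 68.4 in day 50 sons (SD, n = 15, 15 and 14), and its part in the changes of Obp99b was not tested.

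In daughters Obp99b was low and fell at both steps, by 1.81 ± 0.52 and by 1.57 ± 0.56 on the log2 scale (SE, edgeR adjusted p = 0.0023 and 0.015). Its median was 3.39 CPM at day 0, 1.496 at day 10 and 0.583 at day 50, and the second fall was lost without f19, f21 and f22 (adjusted p = 0.17). In the CD line alone Obp99b was at 0.81 for day 50 against day 10 daughters (adjusted p = 0.51). Sons exceeded daughters by 1.64 ± 0.56 at day 0, 7.57 ± 0.44 at day 10 and 6.68 ± 0.41 at day 50 on the log2 scale (SE, edgeR adjusted p = 0.017, 4.4e-15 and 5.8e-14). Its change from day 0 to day 10 was more positive in sons by 6.0 ± 0.71 (SE, edgeR adjusted p = 4.2e-09). Mothers had 0.241 to 23.03 CPM.

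**Figure D4:**
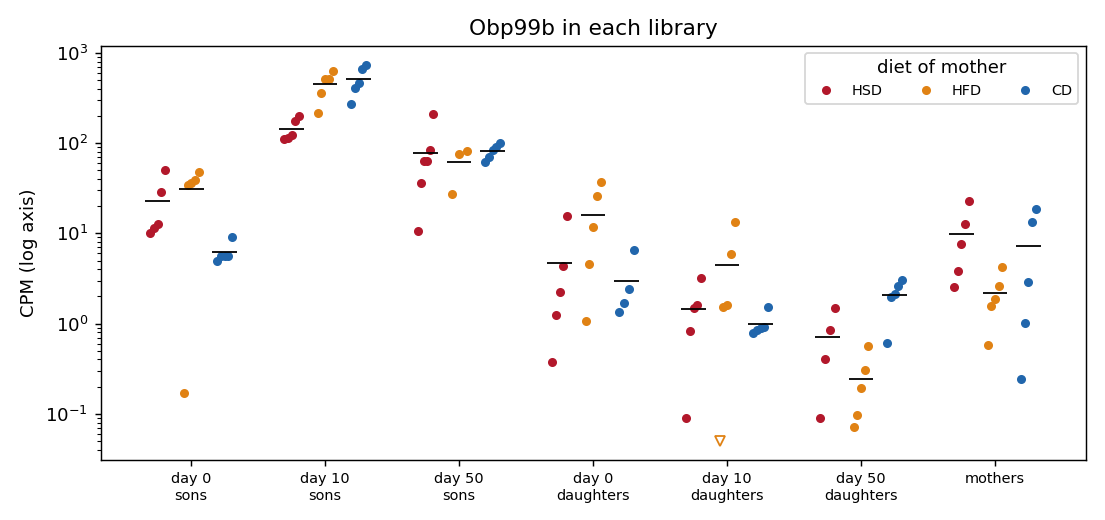
CPM of Obp99b on a log axis in each library (points, by diet of the mother, or own diet for mothers; black bars are group means; the open triangle at 0.05 CPM is a library at 0). The 5 HSD day 10 sons lie between 110 and 198 CPM, under all 5 HFD and all 5 CD day 10 sons.

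With every library kept, no Obp passed edgeR's threshold in sons for maternal diet when each day and sex was fitted alone. With all progeny groups in 1 edgeR fit, 1 Obp was higher in HFD than in CD day 0 sons, 1 lower in HSD than in HFD day 0 sons, and 3 higher and 1 lower in HFD than in CD day 50 sons. The share of all genes in that fit is not given here. In day 10 sons the 5 HSD libraries lay below every HFD and CD library for Obp99b, with log2 fold changes of -1.67 ± 0.32 against HFD and -1.87 ± 0.32 against CD (SE, edgeR adjusted p = 0.15 and 0.21, unadjusted p = 1.1e-04 and 3.9e-05), where 0% of 12518 genes passed. DESeq2 called it in both comparisons, among 46 genes against HFD and 20 against CD (DESeq2 adjusted p = 2.18e-04 and 2.54e-05). Without m27 the edgeR adjusted p against HFD was 0.0402. The 4 head fat body genes summed to 334 to 427 CPM in HSD, 796 to 1527 in HFD and 343 to 669 in CD day 10 sons, so that HSD lay apart from HFD but overlapped CD, and their part in the Obp99b difference was not tested. In HFD day 0 sons Obp99b was above CD by 2.29 ± 0.81 on the log2 scale (SE, edgeR adjusted p = 0.99), and by 2.60 without m8 (adjusted p = 0.047). Without m8, Obp22a, Obp56f, Obp56i and Obp99b also passed as higher in HSD than in CD day 0 sons, and 0 Obps passed when m12 was left out as well. In HFD day 50 sons the seminal fluid gene Obp22a had 36.4, 30.7 and 53.4 CPM, against 12.2, 20.4, 10.6, 20.2 and 15.4 in CD sons, with no overlap and a log2 fold change of 1.45 ± 0.31 (SE, edgeR adjusted p = 0.098). All 3 of these HFD sons lay nearest to day 10, and no value without them can be given. Their testis genes summed to 1233 to 1434 CPM, against 32.3 to 362 in CD sons, and their accessory gland genes to 1787 to 2767 CPM, against 878 to 1916 in CD sons, and the part of these in the Obp differences was not tested. DESeq2 called 8 Obps higher there, among 2429 genes called in either direction. Without m45 edgeR called 10 Obps higher, with its share of all genes not given here. At an unadjusted p under 0.05, edgeR counted 2, 7 and 3 Obps in day 0 sons, 0, 4 and 4 in day 10 sons and 14, 9 and 5 in day 50 sons. Each trio gives HFD against CD, then HSD against CD, then HSD against HFD. No share of all genes at that unadjusted cutoff is given here, so the counts show nothing particular to the Obps.

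No Obp passed the threshold in any of the 3 diet comparisons of mothers or of day 0 daughters, by DESeq2 or by edgeR. The edgeR fits were within each day and sex, and 0% of genes passed in them. Over all genes DESeq2 called 15, 38 and 1 in mothers and 0, 0 and 147 in day 0 daughters (HFD against CD, HSD against CD, HSD against HFD). With all progeny groups in 1 edgeR fit, 6 Obps were higher in HSD than in CD day 0 daughters and 7 higher in HSD than in HFD day 0 daughters. The share of all genes called in that fit is not given here. The HSD group holds f12, with its testis and accessory gland transcripts, and its part in these counts was not tested. At an unadjusted p under 0.05, edgeR counted 2, 3 and 7 of 27 Obps in mothers and 2, 0 and 1 of 29 in day 0 daughters, in the same order. No share of all genes at that unadjusted cutoff is given here. The smallest p in mothers was that of Obp56h, at 1.28 ± 0.34 on the log2 scale in HSD against HFD (SE, edgeR adjusted p = 0.61).

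The HSD and HFD lines of day 10 daughters differed in a share of Obps near that of all genes, with the Obps that passed all lower in HSD. In HSD against HFD daughters, 20 of 28 tested Obps were lower and none higher, where 66.3% of 10354 genes differed, and the median log2 fold change was -1.61 over the Obps and -0.08 over all genes. All 7 antennal Obps were lower, and 10 of 10 tested genes of the olfactory list were too, while 0 of 8 eye genes passed the threshold at a median of -0.41. Obp83a had 16.7, 13.2, 20.9, 23.3 and 13.7 CPM in HSD daughters, against 31.1, 102, 34.6, 37.2 and 45.9 in HFD daughters, with no overlap. Obp59a had 2.42, 1.08, 1.98, 2.24 and 1.23 CPM in HSD daughters, against 4.16, 20.6, 4.15, 6.04 and 6.02 in HFD daughters, and CD daughters, at 1.85 to 4.22, overlapped both. Its log2 fold change was -2.34 ± 0.46 and that of Obp84a -2.19 ± 0.42 (SE, edgeR adjusted p = 0.0024 and 0.0022).

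The HFD group holds f21 and f22. Without f19, f21 and f22, 15 Obps were lower and 3 higher in HSD than in HFD daughters, and all 7 antennal Obps were still lower, with Obp83a at -1.33 and Obp84a at -1.85 on the log2 scale (edgeR adjusted p = 9.5e-04 and 0.0047). The 3 higher ones were Obp56e, Obp56h and Obp99a, at 1.43, 2.26 and 1.59. With those 3 libraries left out, Obp83g, Obp83cd and Obp44a, which had been lower by 4.27, 2.20 and 2.14 on the log2 scale, no longer passed (adjusted p = 0.094, 0.40 and 0.90). Without f21, f22 and f27, 14 were lower and 3 higher. Against CD daughters, no Obp passed in HFD daughters, where 0.0483% of genes did, or in HSD daughters, where 0% did. At the looser cutoff of an unadjusted p under 0.05 there were 18 of 28 Obps in HFD and 5 in HSD daughters. No share of all genes at that unadjusted cutoff is given here, so these counts show nothing particular to the Obps. DESeq2 called 9 Obps higher in HFD than in CD daughters, among 928 genes called, and none in HSD daughters, among 241 genes. Without f19, f21 and f22 edgeR called 6 higher and 3 lower in HFD than in CD daughters. The share of all genes in that last fit is not given here.

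**Figure D5:**
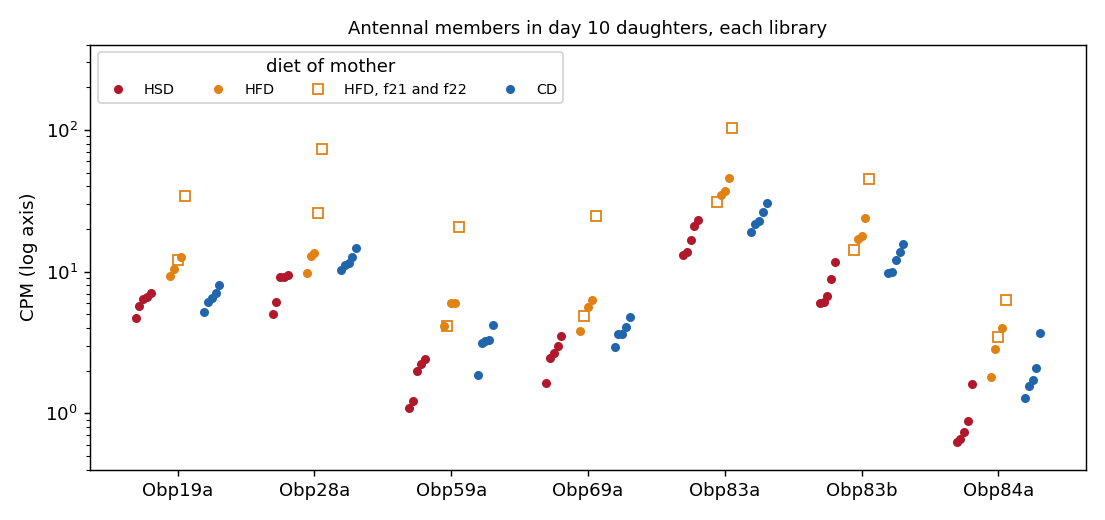
CPM on a log axis of the 7 antennal Obps in each day 10 daughter library, by diet of the mother (HSD, HFD, CD from left to right within a gene); open squares are f21 and f22. For Obp83a the 5 HSD libraries end at 23.3 CPM and the 5 HFD libraries begin at 31.1 CPM.

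In day 50 daughters the Obps differed from CD in both directions. In HSD against CD daughters 7 of 26 Obps were higher and 2 lower, where 9.48% of 10132 genes differed, and the median log2 fold change was 0.61 over the Obps and -0.0034 over all genes. The higher ones were the antennal Obp59a, Obp69a, Obp83a and Obp83b with Obp19b, Obp44a and Obp56g, and 7 of 8 eye genes were higher as well. The ovary genes summed to 2769 to 3169 CPM in HSD and 4016 to 6716 CPM in CD daughters, with no overlap. The part of this ovary difference in the Obp differences was not tested. Obp83a had 19.2, 22.5, 31.3 and 26.6 CPM in HSD daughters, against 11.2, 12.2, 13.3, 8.47 and 10.2 in CD daughters, with no overlap and a log2 fold change of 1.13 ± 0.21 (SE, edgeR adjusted p = 0.0063). Obp83cd and Obp99c were lower, by 1.69 ± 0.30 and 0.94 ± 0.24 on the log2 scale (SE, edgeR adjusted p = 0.0054 and 0.029). In HFD against CD daughters 1 Obp was higher and 4 lower, where 6.24% of genes differed. DESeq2 called 4 higher and 4 lower there, among 938 genes called, and edgeR called 2 to 6 Obps when 1 library was left out. Obp99b had 0.0975, 0.559, 0.192, 0.309 and 0.0709 CPM in HFD daughters, against 3.05, 2.61, 0.607, 1.99 and 2.11 in CD daughters, with no overlap and a log2 fold change of -3.03 ± 0.63 (SE, edgeR adjusted p = 0.011). Obp83cd, Obp99c and Obp56a were the other lower ones, and Obp56g was higher by 1.45 ± 0.40 (SE, edgeR adjusted p = 0.045). With all progeny groups in 1 fit, 3 Obps passed in HSD against CD daughters and 0 in HFD against CD daughters. In HSD against HFD daughters no Obp passed by edgeR and 0% of genes did. There were 3 Obps at an unadjusted p under 0.05, with no share of all genes at that cutoff given here. DESeq2 called 333 genes there, with Obp44a the single Obp.

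The effect of maternal diet did not differ between sons and daughters past the threshold for any Obp by edgeR with every library kept. For HFD against CD, 0% of genes passed at day 0, 0.00779% at day 10 and 0.202% at day 50, and for HSD against CD 0%, 0% and 0.109%. At an unadjusted p under 0.05 there were 1, 12 and 4 Obps for HFD and 3, 4 and 7 for HSD at days 0, 10 and 50. No share of all genes at that unadjusted cutoff is given here, so these counts show nothing particular to the Obps. DESeq2 called 0, 2 and 1 Obps for HFD and 2, 0 and 2 for HSD. Over all genes it called 206, 280 and 485 for HFD and 575, 10 and 160 for HSD. For HFD at day 10, edgeR called 3 without f19, f21 and f22, 4 without m27, f21, f22 and f27, and 8 without all of these. At day 50 it called 2 for HFD and 1 for HSD without m45, and 3 and 1 without m40 as well.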

How the data were processed

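RNA of whole flies was sequenced, and the authors deposited 1 table of counts per gene for the mothers and 1 for the progeny. All values were whole numbers. The submitters' processing notes name kallisto, DESeq2 1.36.0, R 4.2.0 and build BDGP6 without their roles, and no source used here states the strandedness. Symbols, positions and transcript lengths came from the Ensembl annotation of BDGP6.54, and 10 of 14312 genes had no symbol.

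Genes passed edgeR's filterByExpr (minimum count 10, minimum total 15). TMM-scaled counts were tested with edgeR 4.0.16 (R 4.3.3, limma 3.58.1) by the quasi-likelihood F test in 36 comparisons, with Benjamini-Hochberg adjustment over all genes tested and a threshold of 0.05. Day comparisons were averaged over the maternal diets. CPM were TMM-scaled within each table, so the mothers and the progeny were not tested against each other. Depth ran from 6332907 to 19469296 counts per library, and bounds cover counting error only.

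Members named with statistics averaged at least 1 CPM and were at most 6 rises and 6 falls per comparison by size, with Obp99b always included and the smallest p where none passed. Other members are named for contrast and were chosen after their values were seen. The members, lists and rules were chosen with earlier results of these data known.

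On simulated counts with known changes, the HSD against HFD comparison of day 10 daughters recovered 20% of 1.5-fold, 42.5% of 2-fold and 81.9% of 4-fold changes. There 9 of 110 calls were false. Recovery of 2-fold changes was 80.3% for day 10 against day 0 daughters and 83.3% for sons against daughters at day 10. It was 56.7% for the difference between the sexes in day 10 against day 0. DESeq2 1.42.0, median-of-ratios scaling, no filter, 1 fit over all progeny groups, single maternal lines and left-out libraries were the alternatives. For alternatives other than DESeq2, counts of Obps are given without the share of all genes called.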

Additional observations from a re-analysis of the deposited data

Results flagged for a closer look

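Libraries stood apart from the rest of their group in 82 of 595 combinations of an Obp and a group (13.8%), by cutoffs that flag about 1 in 20 groups of normal values. CPM were not shown to be normal and the same libraries recur across Obps, so no excess over chance can be read from this share. Of these flags f22 held 13, m44 held 12 and m8 held 10. For Obp99b, the highest value was 9.10 CPM in m5 among CD day 0 sons, 15.6 CPM in f12 among HSD day 0 daughters and 211 CPM in m44 among HSD day 50 sons, and the lowest was 0.172 CPM in m8 among HFD day 0 sons. For Obp44a, f19 was highest among CD day 10 daughters (82.3 CPM), f28 among HSD day 10 daughters (59.8 CPM) and m45 among HSD day 50 sons (536.0 CPM), while m8 was lowest among HFD day 0 sons (12.8 CPM) and m27 among HSD day 10 sons (62.2 CPM). For Obp51a, m33 was lowest among CD day 50 sons (93.0 CPM), and f12 among HSD day 0 daughters (40.9 CPM) and m44 among HSD day 50 sons (316 CPM) were highest. For Obp19c, the highest values were 54.2 CPM in m8 among HFD day 0 sons, 121 CPM in s8 among HFD mothers and 12.4 CPM in m44 among HSD day 50 sons. For Obp83g they were 2.16 CPM in m26 among HSD day 10 sons and 38.4 CPM in m45 among HSD day 50 sons, and for Obp99a 402 CPM in f22 among HFD day 10 daughters.

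The change with age differed between sons and daughters by edgeR's test of that difference. From day 0 to day 10 the change in sons minus that in daughters, on the log2 scale, was 6.0 for Obp99b, 2.60 for Obp56f, 2.47 for Obp19d, 2.28 for Obp57c, 2.13 for Obp19b, 1.95 for Obp44a and -1.68 for Obp56e. Obp56f was low in daughters, at means of 0.291 (CD), 0.627 (HFD) and 0.0508 CPM (HSD) at day 10. Its highest HSD day 0 daughter had 17.6 CPM. In sons the Obp56f means were 30.6, 38.3 and 51.7 CPM at day 0 and 30.2, 36.4 and 38.9 at day 10 (CD, HFD, HSD). From day 10 to day 50 the change in sons minus that in daughters was 5.49 for Obp83g, 1.08 for Obp69a, 0.92 for Obp28a, 0.88 for Obp59a, 0.85 for Obp19b, 0.72 for Obp19a and -2.47 for Obp99a. Obp83g was near 0 in day 50 daughters, at means of 0.109 (CD), 0.0419 (HFD) and 0.284 CPM (HSD). Its highest HFD day 10 daughter had 38.8 CPM and its highest HSD day 50 son 38.4 CPM, both in doubted libraries. The second set of comparisons shares its day 10 libraries with the first.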

How the results depend on the processing

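No paired analysis was possible because the replicate names are running library numbers that no 2 groups share. The counts below are Obps past the threshold. DESeq2 called 9 in HFD against CD day 10 daughters, 8 in HFD against CD and 15 in HSD against CD day 50 daughters, 1 in HSD against HFD day 50 daughters, 1 in each HSD comparison of day 10 sons and 8 in HFD against CD day 50 sons. Over all genes DESeq2 called 928, 938, 1451, 333, 20 (HSD against CD), 46 (HSD against HFD) and 2429 in the same comparisons. For the difference between the sexes DESeq2 called 2 (HSD against CD, day 0), 2 (HFD, day 10), 1 (HFD, day 50) and 2 (HSD, day 50). Its counts over all genes there were 575, 280, 485 and 160. With 1 fit over all progeny groups, HSD day 0 daughters had 6 against CD and 7 against HFD, HFD against CD daughters 3 at day 10 and 0 at day 50, HSD against CD day 50 daughters 3, HFD against CD day 0 sons 1, HSD against HFD day 0 sons 1 and HFD against CD day 50 sons 4.

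Without f19, f21 and f22, HFD against CD day 10 daughters had 9, and 7 and 10 with the sets chosen after seeing the data (f21, f22, f27, then also f19). The difference between the sexes there was 3, then 4 and 8. Without m8, day 0 sons had 1 in HFD against CD (also without m12, chosen after seeing the data) and 4 in HSD against CD. Without m27, chosen after seeing the data, HSD against HFD day 10 sons had 2. Without m45, HFD against CD day 50 sons had 10 (also 10 without m40), and the difference between the sexes at day 50 had 2 for HFD (3 without m40) and 1 for HSD (1 without m40). Day 50 against day 10 sons had 22 and 24 with the added sets, and the difference between the sexes over those days had 16 with the first.

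Single maternal lines gave, for day 10 against day 0, 0 in HFD daughters and 10 in HSD sons, and for day 50 against day 10, 1 in HSD daughters, 2 in HFD sons and 1 in HSD sons. Sons against daughters at day 0 had 10 in the CD line and 10 in the HFD line. The difference between the sexes had 14 (CD) and 2 (HFD) for day 10 against day 0, and 3 (CD), 16 (HFD) and 0 (HSD) for day 50 against day 10.

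Leaving out 1 library at a time gave 0 to 4 in HFD and 0 to 1 in HSD against CD day 10 daughters, 2 to 6 in HFD and 5 to 15 in HSD against CD day 50 daughters, 0 to 1 in HFD and 0 to 4 in HSD against CD day 0 sons, 0 to 2 in HSD against HFD day 10 sons and 0 to 10 in HFD against CD day 50 sons. For the difference between the sexes it gave 0 to 2 for HFD at day 10, 0 to 2 for HFD at day 50 and 0 to 1 for HSD at day 50.

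These log2 fold changes turned sign. Without f12, Obp56g in HSD day 0 daughters was -0.47 against CD and -0.23 against HFD, or -0.20 and -0.16 without all doubted daughters, and Obp99b (HSD against CD) was -0.65, or -0.00027. In HSD against HFD day 10 daughters Obp44a was 0.0812 and 0.0810 in the added sets, and Obp99b was 0.32, 0.61 and 0.61 without the doubted libraries. Obp99b in HSD against CD day 50 sons was 0.12 without m45 and 0.27 without m40 too. Obp99a in day 10 against day 0 daughters was -0.050 without the libraries nearest to another day. In single lines, Obp56g was 0.0449 (HFD, day 10 against day 0 daughters), and for day 50 against day 10 daughters Obp56d was -0.0744 (HFD), Obp99b 0.81 (CD), Obp69a 0.0546, Obp28a 0.23 and Obp57b 0.12 (HSD). Obp83g in day 10 sons against daughters was 0.74 (HSD). The sex difference in HFD against CD at day 0 for Obp99b was 0.29, 0.0361 and 0.0226 without doubted libraries, and that in HSD against CD for Obp51a was 0.64, 0.25 and 0.19. For day 50 against day 10 it was -0.0266 for Obp28a, -0.45 for Obp59a, -0.39 for Obp19b, -0.23 for Obp19a and 0.13 for Obp99b in the HSD line, and 1.17 for Obp99b in the HFD line. With 1 library left out, Obp99b ran from -0.11 to 1.21 (HSD against CD mothers), -0.65 to 1.30 (HSD against CD day 0 daughters), -0.0322 to 0.76 (HSD against CD day 10 daughters), -0.57 to 0.0127 (HFD against CD day 50 sons), -0.65 to 0.12 (HSD against CD day 50 sons), -0.34 to 0.46 (HSD against HFD day 50 sons) and -0.92 to 0.34 (sex difference, HFD, day 0). Obp56g ran from -0.47 to 2.60 and from -0.23 to 2.998 (day 0 daughters, HSD against CD and HFD), and Obp51a from -9.33 to 0.55 (sex difference, HSD, day 0). The cause was not tested.

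Median-of-ratios scaling moved the median of all genes to -0.04 from 0.08 (log2) in day 50 against day 10 sons, and to 0.32 and 0.77, against 0.20 and 0.63, in sons against daughters at days 10 and 50. Low Obps limit the precision: 15 stayed under 1 CPM in every group.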

Other observations

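The Obps lie on 5 chromosome arms, 29 of them on 2R and 12 on 3R, and 33 of 51 lie within 20000 bases of another. The share of the family's counts held by single Obps differed by sex and day, without a test: Obp56g held 22% in day 0 sons, Obp56d held 17.5% in day 50 sons and 23.6% in day 50 daughters, and Obp99c held 18.8% in mothers.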
